A study of Mus musculus with 2 samples.

Results

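At day 7 after notexin injury, the barcodes that the authors annotated as myonuclei of type IIb and type IIx were 201 of the 3385 annotated barcodes with a cell type (5.94%, 5.17 to 6.79), in a series of 6879 such barcodes. Members were the barcodes with either of these 2 labels in the authors' annotation, and 162 carried the type IIb label and 39 the type IIx label. The series held 2 single-cell RNA sequencing libraries of the mouse shin muscle, tibialis anterior, taken 2 and 7 days after an injection of notexin, which is a venom phospholipase that kills fibres and spares stem cells. Whole muscle of 1 mouse was digested with enzymes, passed through fine filters and counted on the 10x Genomics droplet platform, which reads the 3′ ends of polyadenylated transcripts and counts each molecule once by its unique molecular identifier (UMI). The labels describe C57Bl/6 mice, 7 months old and female, with no transgene named, whereas the annotation gives C57BL/6J and male, and the day 7 library held 1 count of Xist against 4856 counts of 4 Y-linked genes. Each time point had 1 library, so no difference below has a replicate check and no test across samples was possible. Ranges given in parentheses after a value are 95% intervals and cover only the error of counting. The paper assigned cell types from clusters of expression in a far larger collection, and whether these deposited labels came from it was not tested. Differences between labels set from expression describe what the labelling saw and are not tests of it.

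Skeletal muscle fibres are long cells with many nuclei, and each fibre type is named after the myosin heavy chain that drives its contraction. Type IIb fibres carry the fastest myosin, Myh4, and burn mainly glycogen, type IIx fibres carry Myh1 and lie between the glycolytic and the oxidative kinds, type IIa fibres carry Myh2, and slow type I fibres carry Myh7. The shin muscles of the mouse are made mostly of fast fibres. Regenerating fibres first make developmental myosins, Myh3 and Myh8, and the cardiac actin Actc1, and then replace them with the adult forms.

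The 3 fast myosin genes lie next to each other on the forward strand of chromosome 11 in mm10, Myh2 at 67171027 to 67197517, Myh1 at 67200052 to 67224575 and Myh4 at 67238029 to 67260446. Upstream sequence from RefSeq (GRCm38.p6), from base -250 to base -51 before each RefSeq start, is shown because type IIb and type IIx are named after neighbouring genes, Myh4 and Myh1, with Myh2 as the third of the row. Capitals mark a run of 20 bases that all 3 windows share and, in Myh4, the letters CANNTG of an E-box, the motif bound by myogenic helix-loop-helix factors. The windows are chr11:67237562-67237761 for Myh4, chr11:67199852-67200051 for Myh1 and chr11:67170777-67170976 for Myh2. They are counted from RefSeq starts at 67237812 for Myh4, 67200102 for Myh1 and 67171027 for Myh2, of which those of Myh4 and Myh1 differ from the gene starts given above.
Myh4: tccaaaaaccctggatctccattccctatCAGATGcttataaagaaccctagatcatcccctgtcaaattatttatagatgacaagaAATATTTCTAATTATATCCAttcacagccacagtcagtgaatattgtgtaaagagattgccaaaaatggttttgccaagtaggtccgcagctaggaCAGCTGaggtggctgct
Myh1: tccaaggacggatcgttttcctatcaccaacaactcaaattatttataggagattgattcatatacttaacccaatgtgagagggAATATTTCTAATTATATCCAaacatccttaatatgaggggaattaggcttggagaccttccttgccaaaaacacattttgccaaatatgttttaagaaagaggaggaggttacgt
Myh2: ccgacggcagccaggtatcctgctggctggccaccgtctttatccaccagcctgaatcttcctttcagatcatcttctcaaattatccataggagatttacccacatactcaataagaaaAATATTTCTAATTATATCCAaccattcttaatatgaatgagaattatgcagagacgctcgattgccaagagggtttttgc

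The shared run began at base -163 in Myh4, -165 in Myh1 and -130 in Myh2, and of 32851 such windows 3 held it (0.00913%), those of these 3 genes. The Myh4 window held 2 E-boxes, at -221 and -67, and the letters CANNTG, which read the same on both strands, were found in 59.0% of all windows. A match of letters is a description and not a measured binding site.

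Fibre messenger RNA made up a large share of what these barcodes held. The 16 fibre genes, which are the 5 supplied markers (Myh4, Myh1, the creatine kinase Ckm, the skeletal actin Acta1 and the calcium buffer Pvalb) and 11 fast sarcomere genes, took a median of 32.3% of the counts of a type IIb barcode (lowest 4.01%, highest 43.6%). In type IIx barcodes the median was 29.7% (lowest 13.9%, highest 41.3%). Members at or under 20% were 14, of which 13 were type IIb. The same genes took a median of 0.112% in the 139 muscle stem cells and 0.0718% in the 1368 immune barcodes of the library.

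The labels call these barcodes myonuclei, and nucleus-retained RNA was scarce in most of them. The 5 nucleus-retained noncoding RNAs found in the table (Malat1, Neat1, Meg3, Kcnq1ot1 and Mirg) made up 0.0784% of all type IIb counts and 0.00904% of type IIx counts. They made up 1.76% in muscle stem cells, 1.10% in immune barcodes and 0.513% in the free RNA of the library. Per barcode the median was 0% under both labels and 1.52% in muscle stem cells, but the highest type IIb barcode reached 2.72%, and 5 type IIb barcodes described further on held most of the Malat1. The members are called fibre barcodes here, after the transcripts they held, and what each of them held, a nucleus, a fibre fragment or a cell, was not tested. Mitochondrial transcripts were 2.21% of type IIb and 1.93% of type IIx counts, against 8.34% in muscle stem cells.

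**Figure D1:**
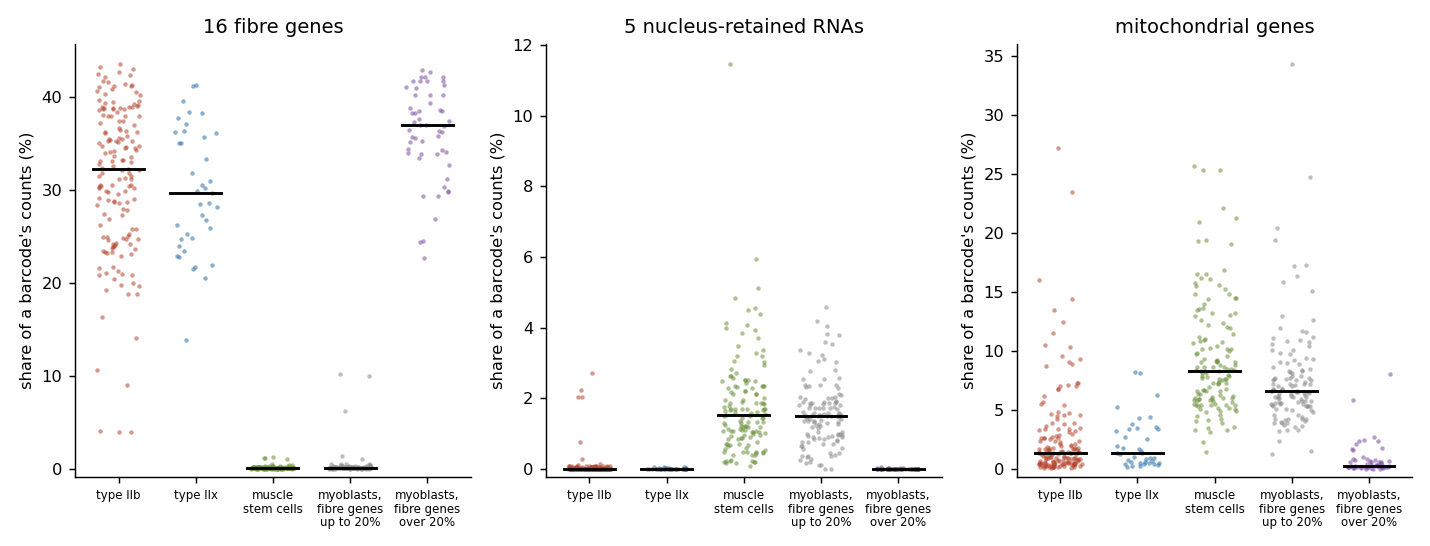
Share of counts per barcode taken by the 16 fibre genes, by mitochondrial genes and by nucleus-retained RNAs, in percent, with 1 point per barcode and a line at the median, for both labels, for muscle stem cells and for barcodes annotated as myoblasts or progenitors, split at a fibre gene share of 20%. Fibre barcodes sit high for fibre genes, with medians of 32.3% and 29.7%, and most of them sit at 0 for nucleus-retained RNA.

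Fibre barcodes were shallow. The median was 2291.5 counts and 727 genes in type IIb (1062 to 26930 counts) and 2361 counts and 772 genes in type IIx (1357 to 8047 counts). The limits given in the study's methods (750 genes, 1000 transcripts and 30% mitochondrial share) were met by 96 of the 201 members (47.8%) and by 3100 of the 3184 other annotated barcodes (97.4%), and all 105 members that missed them did so by their number of genes.

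Myh4 was higher in type IIb than in type IIx barcodes and Myh1 lower, and the distributions overlapped. Myh4 ran from 0 counts through a median of 3 to 98 counts per type IIb barcode, and from 0 through 0 to 8 per type IIx barcode. Summed over barcodes it stood at 1628 CPM (counts scaled to the same total in every group, 1521 to 1741) in type IIb and 235 CPM (154 to 345) in type IIx, a log2 ratio of 2.79 (2.23 to 3.41). Myh1 showed the opposite order. It ran from 0 through 0 to 13 counts in type IIb barcodes and from 0 through 3 to 30 in type IIx barcodes. Its summed level was 273 CPM (230 to 321) in type IIb and 1474 CPM (1256 to 1719) in type IIx, a log2 ratio of -2.43 (-2.77 to -2.10). These values are counts of 3′ ends that were not scaled by transcript length, so a level here compares 1 gene between groups. Where Myh4 and Myh1 are set against each other below, the number of counts is compared and not the amount of transcript.

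Detection of the 2 myosins lay far above that in cells that should lack them. At least 1 count of Myh4 was found in 137 of 162 type IIb barcodes (84.6%) and 12 of 39 type IIx barcodes (30.8%), and of Myh1 in 34.6% and 71.8%. Immune barcodes, with a median of 6150 counts, held Myh4 in 3.58% and Myh1 in 1.54%. With every barcode thinned to 1000 counts, the Myh4 shares were 69.1% in type IIb, 17.9% in type IIx and 0.512% in immune barcodes, and the Myh1 shares were 20.4%, 51.3% and 0.0731%.

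Single barcodes did not always follow their label. Among the 162 type IIb barcodes counts of Myh4 exceeded those of Myh1 in 123, Myh1 exceeded Myh4 in 21, both were equal and above 0 in 4, and neither was detected in 14. Among the 39 type IIx barcodes Myh1 exceeded Myh4 in 25, Myh4 exceeded Myh1 in 5, they were equal in 2 and absent in 7. Both were detected in 45 type IIb and 8 type IIx barcodes. The reads were 58 bases long, and windows of 58 bases that occur in both genes made up 5.87% of the last 500 bases of each transcript, so a part of the lesser myosin in a barcode is uncertain.

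Among the members, Myh2 was found in type IIx barcodes only, at few counts. It had 0 counts in type IIb barcodes, where 3 counts would have marked 1.85% of them, and 11 counts in 6 of 39 type IIx barcodes (15.4%), of which 5 also held Myh1. Its level was at least 17.4-fold lower in type IIb, taking 3 counts over the label as the floor, and 14.4% of the last 500 bases of Myh2 was shared with Myh1 at the length of a read. Myh7, the slow myosin, had 0 counts under both labels. A single type IIx barcode of 5404 counts held all 12 counts of Myl2, the slow regulatory light chain, in that label. In the same barcode were 10 counts of the slow troponin T Tnnt1, 9 of the slow troponin I Tnni1, 5 of Tnnc1, 4 of Myl3, 31 of the 117 counts of Myoz2 and 3 of Myh2, with 0 counts of Myh1, Myh4, Pvalb, Actn3 and Mybpc2. It was singled out after its values were seen.

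**Figure D2:**
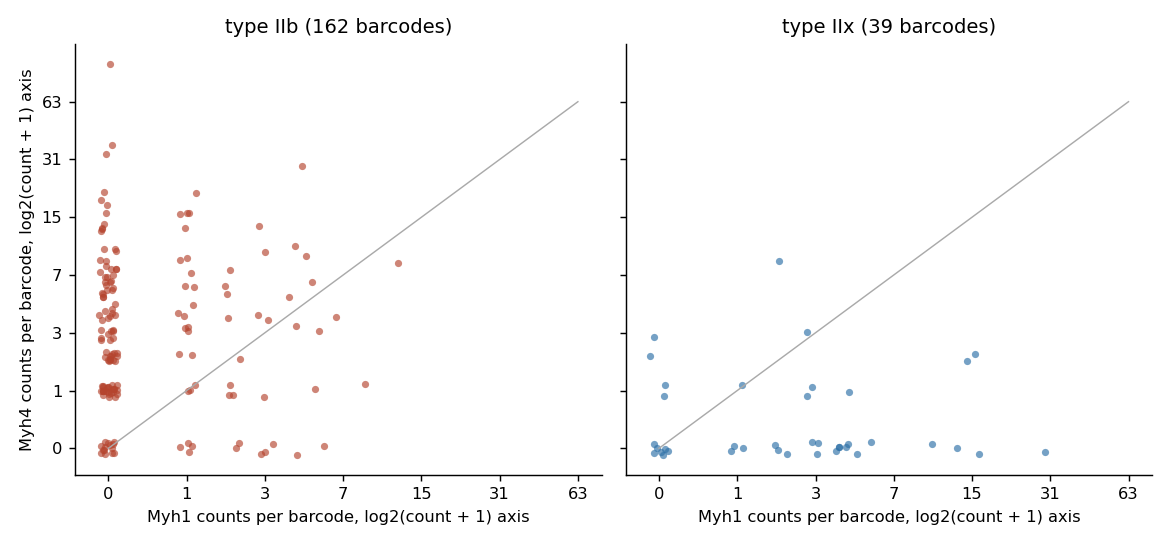
Counts of Myh1 (horizontal) and Myh4 (vertical) in each type IIb (left) and type IIx (right) barcode, on log2(count + 1) axes, with points spread slightly around whole counts and a line where both are equal. Type IIb barcodes reach 98 counts of Myh4 and 13 of Myh1, type IIx barcodes reach 8 of Myh4 and 30 of Myh1, and barcodes of both labels lie at 0 on either axis.

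Outside the myosins, glycolysis genes leaned to type IIb barcodes and oxidative genes to type IIx barcodes. Of 1183 genes with at least 50 counts over both labels and detection in at least 10% of the barcodes, 64 were 2-fold or more higher in type IIb (5.41%) and 39 were 2-fold or more higher in type IIx (3.3%), with a median log2 ratio of -0.01 over all 1183. The 11 fast sarcomere genes had a median log2 ratio of 0.08, and 3 of them passed 2-fold, all higher in type IIb. These were Actn3, an actinin of fast Z-discs (log2 ratio 1.57), Mybpc2, the fast myosin-binding protein C (1.29), and Mylk2, the kinase of the regulatory light chain (1.18). Pvalb, which speeds relaxation by binding calcium, ran from 1 through 19 to 155 counts in type IIb barcodes and from 0 through 7 to 44 in type IIx barcodes. Its log2 ratio was 1.01 (0.87 to 1.16). Ckm (0.32) and Acta1 (-0.12) stayed within 2-fold.

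All 13 tested genes of glycogen breakdown and glycolysis lay above 0 on the log2 scale, with a median of 0.61 and a range of 0.20 to 1.98. The 3 past 2-fold were Gpd1, the glycerol phosphate dehydrogenase (1.98), Pgm2, a phosphoglucomutase (1.50), and Pygm, the muscle glycogen phosphorylase (1.04). Pygm was found in 79.0% of type IIb and 69.2% of type IIx barcodes. The others, which include the aldolase Aldoa (0.59), the enolase Eno3 (0.63) and the lactate dehydrogenase Ldha (0.61), were within 2-fold.

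Oxidative and slow-fibre genes leaned to type IIx, where 8 of 12 could be compared, with a median log2 ratio of -0.78 and all 8 below 0 (7 of 8 without the barcode that held Myl2). Mb encodes myoglobin, the oxygen store of oxidative fibres. It ran from 0 through 3 to 219 counts in type IIb barcodes and from 1 through 18 to 111 in type IIx barcodes, so that every type IIx barcode held it. Its summed level was 2232 CPM (2106 to 2364) in type IIb and 9324 CPM (8763 to 9911) in type IIx, a log2 ratio of -2.06 (-2.18 to -1.94). The share of barcodes with Mb, thinned to 1000 counts, was 68.5% in type IIb and 100% in type IIx, against 1.02% in immune barcodes. Tnni1 (-1.91) and the fatty acid carrier Fabp3 (-1.30) were the other members past 2-fold. The respiratory chain subunits Cox6a2 (-0.45), Cox7a1 (-0.71) and Cox8b (-0.27) and the mitochondrial creatine kinase Ckmt2 (-0.85) were not.

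The barcode with the Myl2 counts set some of these values. Without it, Mb stood at a log2 ratio of -2.09, Tnni1 at -1.59 and Tnnt1 at 0.21, against -0.49 for Tnnt1 with it. Leaving it out was chosen after seeing the data.

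Among the sarcomere scaffold genes 2 of 13 were 2-fold or more higher in type IIx and 0 in type IIb, with a median log2 ratio of -0.39. They were Actn2, the Z-disc actinin found in all fibre types (-1.91), and Cryab, a small heat shock protein that guards Z-discs (-1.45). Titin (Ttn, 0.07), nebulin (Neb, -0.40) and desmin (Des, 0.16) lay within 2-fold. Of 12 calcium-handling genes 1 passed 2-fold, Cacng1, a subunit of the voltage sensor (1.45, higher in type IIb). The fast calcium pump Atp2a1 was at 0.23, the pump inhibitor Sln at -0.95 and the release channel Ryr1 at -0.86. Among the tested myogenic transcription factors, Maf was higher in type IIb (1.27, 0.16 to 2.63, on 7 type IIx counts), while Myf6 (0.09) and Mef2c (-0.74) were within 2-fold.

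The genes ranked highest for type IIx began with a pair of Z-disc proteins. Myoz2, a calsarcin of slow fibres, had 40 counts in type IIb and 117 in type IIx barcodes, a log2 ratio of -3.79 (-4.35 to -3.27), and -3.42 without the Myl2 barcode. Csrp3, the muscle LIM protein, had 23 and 64 counts (-3.72, -4.48 to -3.01). Both were found in a minority of type IIb barcodes, Myoz2 in 15.4% and Csrp3 in 8.02%, against 71.8% and 41.0% of type IIx barcodes. Below them, beside Myh1, Mb and Actn2 described above, lay the LIM protein Fhl1 (-1.94), Tceal7 (-1.80) and the small heat shock protein Hspb7 (-1.67). In type IIb the ranking began with Malat1, described further on, and Myh4, and went on with Cmbl, Tmem233, Vcp, Cst3, Dupd1, Mmadhc, Gpd1 and Amd1. Apart from Malat1, Myh4, Cst3 and Gpd1 these rested on 2 or 3 type IIx counts each, for example Cmbl, a carboxymethylenebutenolidase, with 83 and 2 counts (3.13, 1.23 to 6.20). For the ranking, counts under 3 were taken as 3, which put Cmbl at 2.54, below Myh4. Cst3, with 143 and 7 counts, was higher in free RNA (981 CPM) than under either label. The 30 genes checked under 7 other choices of barcodes and scaling kept their sign in all of them. Cst3, Dupd1, Mmadhc and Amd1 were not among these 30.

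**Figure D3:**
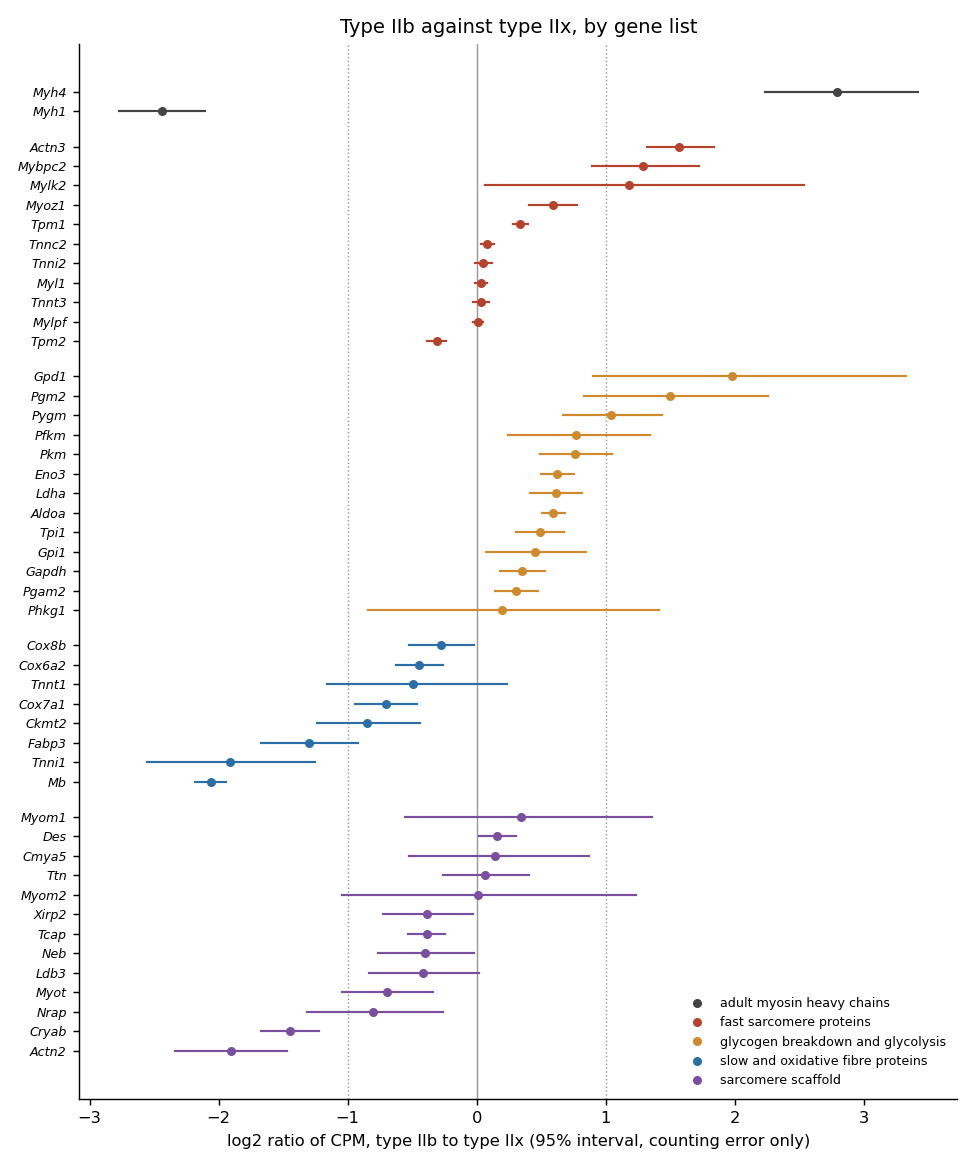
Log2 ratio of summed CPM, type IIb to type IIx, for genes of 5 lists, with bars for 95% counting intervals, a line at 0 and dotted lines at 2-fold. Myh4 (2.79) and Gpd1 (1.98) lie to the type IIb side, and Myh1 (-2.43), Mb (-2.06) and Actn2 (-1.91) to the type IIx side.

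The 21 type IIb barcodes in which Myh1 exceeded Myh4 lay between the labels for Mb, Fhl1 and Myoz2. Mb stood at 1576 CPM (1457 to 1702) in the 123 type IIb barcodes led by Myh4, at 5846 CPM (5313 to 6418) in the 21 led by Myh1, and at 11035 CPM in the 25 type IIx barcodes led by Myh1. Of the 441 Mb counts in these 21 barcodes 306 were in 2 of them, and without those 2, a choice made after seeing the data, Mb stood at 3034 CPM (2544 to 3591). Fhl1 stood at 372, 1180 and 2145 CPM and Myoz2 at 36.4, 265 and 814 CPM in the same order. Actn3 stood at 3745, 3168 and 1124 CPM, and without the 2 highest barcodes of each group at 3440, 2023 and 1020 CPM. Pvalb stood at 8566, 6164 and 3657 CPM. These groups were formed after the counts were seen and are small.

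Free RNA of the library was read from 557014 barcodes of 1 to 100 counts, which held 4966167 counts. All 16 fibre genes were higher in the fibre barcodes than in free RNA, from 6.41-fold for Mylk2 to 11.7-fold for Mylpf, the fast regulatory light chain, with a median of 9.77-fold. Of the 1183 genes, 801 were 2-fold or more higher (67.7%) and 63 lower (5.33%), so a gene on the higher side is the common case, with a median log2 ratio of 1.61. Mitochondrial transcripts were 40.0% of free RNA. Without mitochondrial genes every log2 ratio shifted by -0.70, 554 of 1172 genes were higher and 86 lower, and the lowest of the 16 fibre genes stood at a log2 ratio of 1.98. The filter used counts in fibre barcodes, so genes that are rare in them were not compared. Every tested member of the glycolysis list (13), the scaffold list (13), the calcium list (12) and the oxidative list (8) was among the 801.

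Connective tissue and macrophage transcripts showed the reverse order. The collagens Col3a1 and Col1a2 had log2 ratios of -4.97 and -4.44, and Lyz2, lysozyme of macrophages, -5.05. Ratios of counts between fibre transcripts varied in how near they lay in fibre barcodes and in free RNA. Myh4 to Myh1 was 2.88 (2.52 to 3.29) over the members and 2.77 (2.45 to 3.15) in free RNA, each value inside the other's interval. Pvalb to Ckm was 0.395 (0.382 to 0.408) and 0.379 (0.365 to 0.394), where the intervals overlap but neither holds the other's value. Mylpf to Myl1 was 1.47 (1.44 to 1.49) and 1.37 (1.34 to 1.39), which do not overlap. Tnnt3 to Tnni2, the fast troponins T and I, was 1.10 and 1.16, and Mb to Ckm was 0.186 (0.178 to 0.195) and 0.147 (0.139 to 0.155), and the intervals of neither pair overlap. H19 to Acta1 lay further apart, at 0.0297 (0.0280 to 0.0316) and 0.0543 (0.0517 to 0.0571), and Actc1 to Acta1 near, at 0.0137 and 0.0141. Myh8 to Myh4, on 9 Myh8 counts in the members, was 0.0102 and 0.0253, with intervals that overlap. By label, Myh4 to Myh1 was 5.97 in type IIb and 0.160 in type IIx.

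**Figure D4:**
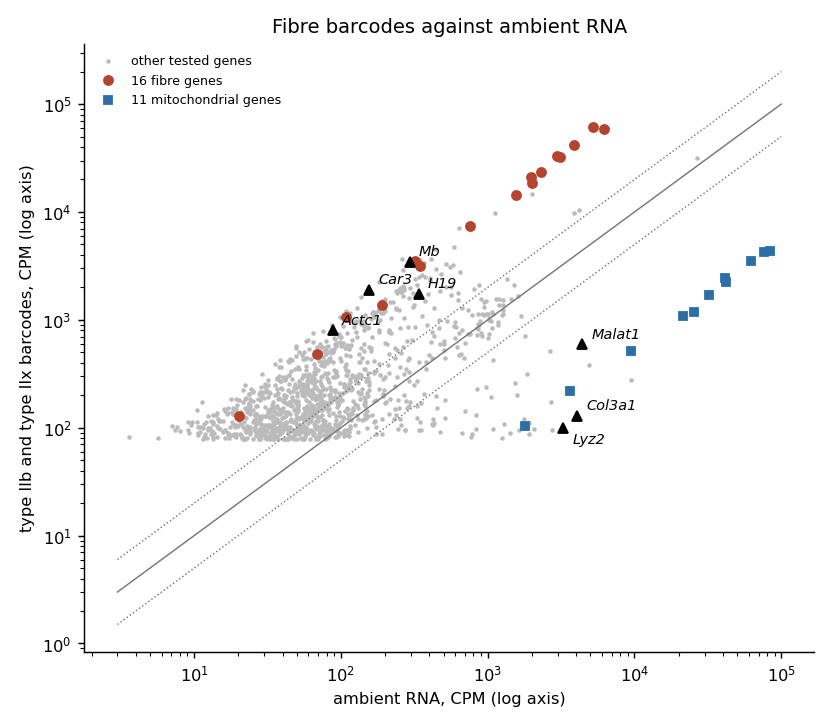
CPM in free RNA (horizontal) and in fibre barcodes (vertical) for the genes compared, both on log axes, with lines at equality and at 2-fold. Marked apart from the rest are the 16 fibre genes, 11 mitochondrial genes and Malat1, H19, Actc1, Col3a1, Lyz2, Car3 and Mb. Fibre genes such as Mylpf lie above equality by up to 11.7-fold, and Malat1, Col3a1 and Lyz2 lie below it.

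Malat1, a long noncoding RNA kept in the nucleus, was low in most fibre barcodes. It was found in 46 of 162 type IIb barcodes (28.4%) and 5 of 39 type IIx barcodes (12.8%), against 99.6% of immune barcodes and 139 of 139 muscle stem cells. Thinned to 1000 counts the shares were 18.5%, 7.69% and, for immune barcodes, 97.6%. Its level was 711 CPM in type IIb and 54.3 CPM in type IIx, against 4398 CPM in free RNA. A handful of barcodes held most of it: 316 of 379 counts (83.4%) were in 5 type IIb barcodes with 47 to 92 counts each, and 4 counts was the highest value in any other. In those 5 the fibre genes took 4.01% to 16.4% of counts, below the median of 32.3%. Without them, a choice made after seeing the data, Malat1 stood at 103 CPM (79.0 to 132), and free RNA was 42.8-fold higher. Among the 187 members in which fibre genes took over 20% of counts, the type IIb to type IIx log2 ratio of Malat1 was 0.92, under 2-fold.

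Developmental myosin was rare in the fibre barcodes. At least 2 counts of Myh3 and Myh8 together were found in 1 of 162 type IIb barcodes (0.617%, 0.0156 to 3.39) and 1 of 39 type IIx barcodes (2.56%, 0.0649 to 13.5), against 0.0731% of immune barcodes. At least 1 count was found in 7.41% and 7.69%, against 0.731%. After thinning to 1000 counts no member held 2, so at this depth neither a low level nor a difference between the labels was detectable. Of 11 other listed genes of young or regenerating fibres found in the table, 6 had under 10 counts and 4 passed the filter. The share of all genes with so few counts was not computed. H19, an imprinted noncoding RNA of embryonic and regenerating muscle, ran from 0 through 3 to 47 counts in type IIb and from 0 through 2 to 19 in type IIx barcodes, and stood at 1868 and 1167 CPM against 339 CPM in free RNA. Its neighbour Igf2, a growth factor, stood at 269 and 226 CPM against 97.9 CPM. Actc1 stood at 820 and 723 CPM against 88.0 CPM, and the atrial light chain Myl4 at 208 and 326 CPM against 36.9 CPM. None of the 4 passed 2-fold between the labels.

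Actc1 varied widely among the members of both labels. It was at 0 in 112 barcodes, at 1 to 4 counts in 57 and at 5 or more in 32, of which 27 were type IIb and 5 type IIx. Car3, a carbonic anhydrase abundant in muscle cytoplasm, ran the other way, at 2484 CPM (2317 to 2659), 1995 CPM (1793 to 2212) and 228 CPM (151 to 329) in these 3 groups. Few barcodes set the middle value, where 162 of the 358 Car3 counts were in 1 barcode of 26930 counts. Without the barcode with most Car3 counts in each group, a choice made after seeing the data, the levels were 2263, 1285 and 115 CPM, and without the 4 highest they were 1991, 501 and 49.3 CPM. Car3 was detected in 80.4% of the barcodes without Actc1 and in 25% of those with 5 or more counts, although the latter were deeper, with a median of 3551 counts against 2158. Thinned to 1000 counts the shares were 70.5% and 15.6%, against 0.658% of immune barcodes.

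Other genes sorted along the same split. The tubulin Tuba4a stood at 1094, 368 and 146 CPM and Mb at 4886, 2524 and 1008 CPM from no Actc1 to 5 or more counts. Myl4 stood at 123, 273 and 447 CPM, Igf2 at 126, 379 and 455 CPM, and Tceal7 at 108, 713 and 699 CPM. Part of the Mb and Tuba4a rested on a few barcodes. Without the 4 highest barcodes of each group, Mb stood at 3936, 1366 and 870 CPM and Tuba4a at 951, 197 and 74.1 CPM, and the median barcode had 2099, 1489 and 977 CPM of Mb. Without the barcode with most Igf2 counts in each group, Igf2 stood at 83.8, 349 and 431 CPM. Tuba4a, Mb and Car3 were thus lower where Actc1 was higher, and Myl4 and Igf2 were higher. Acta1 moved little, at 53309, 64215 and 65438 CPM. The median share of the 16 fibre genes was 28.6%, 35.0% and 38.4%, and its part in these differences was not tested. The 3 groups were formed from Actc1 after the counts were seen, and the values are a description of these barcodes.

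**Figure D5:**
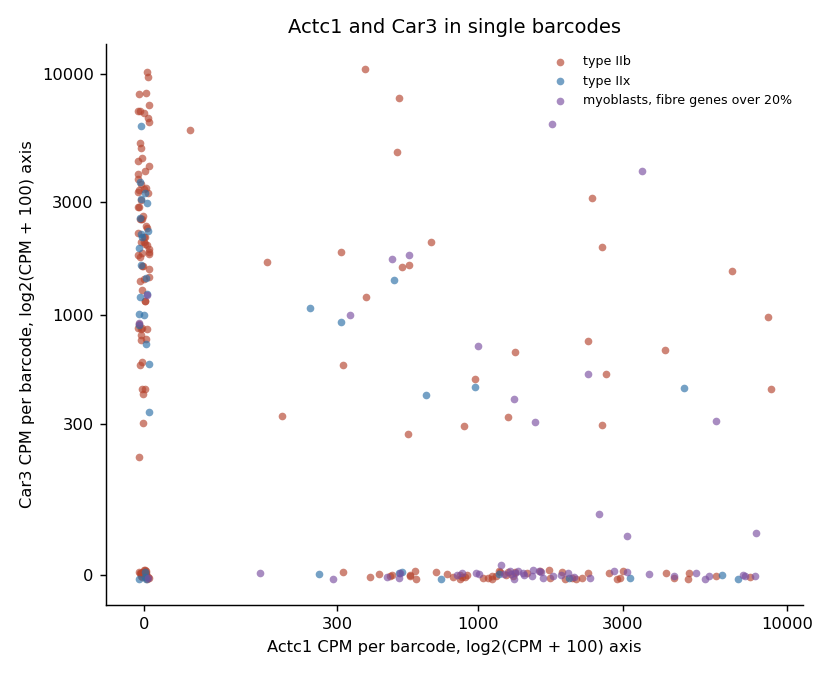
Actc1 (horizontal) and Car3 (vertical) in each fibre barcode, and in the 54 barcodes annotated as myoblasts or progenitors with over 20% fibre counts, in CPM on log2(CPM + 100) axes, coloured by label. Barcodes with many Actc1 counts lie mostly at 0 Car3, and the 112 barcodes without Actc1 hold most of the Car3.

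Genes of the nerve-muscle synapse and of denervation had few counts. Of 15 listed, 4 had 0 of the 635101 counts of the members, among them the acetylcholine receptor subunits Chrnd, Chrng and Chrne, and 11, these 4 included, had under 10 counts. The atrophy ligases Trim63 (80.3 CPM, against 16.1 CPM in free RNA) and Fbxo32 (74.0 and 25.2 CPM) were the most frequent. Of the dystrophin complex and membrane repair genes 6 of 12 had under 10 counts, among them dystrophin itself (Dmd), with 6 counts. Cav3, the muscle caveolin, had a type IIb to type IIx log2 ratio of -0.25 and was the sole gene of its list that passed the filter.

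Barcodes annotated as muscle stem cells, myoblasts and progenitors of the same library, the classes of the same lineage, were compared next. This group holds the 54 fibre-rich barcodes described below, which had 373132 of its 380078 counts of the 16 fibre genes, so the ranking holds for that mixture. Acta1, for example, was 2.40-fold higher in the fibre barcodes than in the whole group and 227-fold higher than in muscle stem cells alone. Of 6949 genes with at least 50 counts over both groups, 559 were 2-fold or more higher in the fibre barcodes (8.04%) and 3872 lower (55.7%). The filter set no limit on detection, and the myogenic group held 3237673 counts against 635101. Genes high in that group thus passed more easily, so the filter favours the lower side. The median log2 ratio over all 6949 genes was -1.26, and relative to the shift of -1.17 between the groups 1963 were higher and 1858 lower. The genes highest in fibre were Car3 (5.26), Tuba4a (4.32), the myosin kinase Mylk4 (3.43), Cst6, Tuba8, Asb2 and Ddit4l (3.06 to 3.40), the splicing factor Rbfox1 (2.85), the intermediate filament Synm (2.80) and Ppp1r3a, which targets a phosphatase to glycogen (2.74). Taking off the shift of -1.17 raises each of these ratios, so that scale is no check of them. Lowest were Pdlim4, Vcam1, an adhesion protein of stem cells, Tubb2b, C1qtnf3, Islr, Cnn3, Clcn5, Nop58, Sdc4 and Notch3. Sdc4, a syndecan of stem cells, had 0 counts in the members and 671 in the others, at least 43.9-fold lower. Of 14 myogenic transcription factors 13 could be compared, and 4 were higher (Myf6, Mef2c, Maf and Tbx15) and 7 lower, among them Pax7, Myf5, Myod1, Myog, Mef2a and Six4. Their median log2 ratio was -1.01, against -1.26 over all 6949 genes. The 7 lower ones are near the common share (55.7% of all genes), so nothing is read from their number.

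Fibre transcripts were also abundant in 54 of the 177 barcodes annotated as myoblasts or progenitors. In these 54 the 16 fibre genes took over 20% of counts, a limit set after seeing the values. The lowest of the 54 stood at 22.7% and the highest of the other 123 at 10.2%, and the nearest members on either side of the limit stood at 20% and 20.5%. They were deeper than the members, with a median of 9098.5 counts, and their nucleus-retained share was 0.00358%. The log2 ratios of members to these barcodes ran from -0.38 for Mylpf to 0.31 for Mybpc2 over the 11 fast sarcomere genes, with a median of -0.10, and 0 of the 11 passed 2-fold. These genes and Ckm are among the 16 that chose the 54 barcodes, so their nearness is a description of that choice and nothing is read from it. Ckm stood at 20528 CPM against 18655 CPM in the members.

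Some genes of young fibre, and Car3, differed between these barcodes and the members, while H19 (1913 against 1746 CPM) and Igf2 (390 against 261 CPM) were within 2-fold. Actc1 stood at 2499 CPM against 803 CPM in the members, a log2 ratio of members to these barcodes of -1.64 (-1.78 to -1.50). Of the 977117 counts of the 54, the deepest barcode held 154154 and the next 119433, with 396 and 380 of the 2442 Actc1 counts. Summed levels of the 54 thus rest in part on few barcodes. Myl4 stood at 1085 against 228 CPM, Myh8 at 68.6 against 14.2 CPM, Tnni1 at 607 against 135 CPM and Csrp3 at 445 against 137 CPM. Car3 stood at 157 against 1908 CPM, a log2 ratio of 3.61 (3.36 to 3.86), Mylk4 at 9.21 against 153 CPM and Tuba4a at 86.0 against 705 CPM. At least 2 counts of Myh3 and Myh8 together were found in 12 of the 54 (22.2%). These genes were picked from the ranking of this comparison after its values were seen. Actc1, Myl4 and Tnni1 were thus higher and Car3, Mylk4 and Tuba4a lower in these 54 than in the members. Thinned to 1000 counts, Actc1 was detected in 75.9% of the 54, in 34.0% of type IIb and in 28.2% of type IIx barcodes, and Car3 in 18.5%, 49.4% and 56.4%. After thinning, 14.8% of the 54 held at least 1 count of Myh3 or Myh8 and none held 2.

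Markers of other cell types took a small share of counts in most members. Marker genes of 11 other cell types took over 1% of counts in 2 of the 201 members, both type IIb. Fibro-adipogenic markers summed to 328 CPM in type IIb and 353 CPM in type IIx against 10547 CPM in free RNA, with Pdgfra at 0. Endothelial markers summed to 83.9 and 63.3 CPM against 1893 CPM, with Flt1 at 0, monocyte and macrophage markers to 151 and 163 CPM against 5165 CPM, and B cell markers (3 genes) to 0. Tenocyte markers (4 genes) lay nearer to free RNA, at 177 CPM in type IIb and 90.4 CPM in type IIx against 329 CPM in free RNA and 35.8 CPM in muscle stem cells. Most of their counts were of Thbs4, an adhesive matrix protein, with a log2 ratio to free RNA of -0.89 and to the myogenic barcodes of 2.29. Haemoglobin had 231 of its 235 counts in 2 type IIb barcodes. Stem cell and myoblast markers summed to 68.6 and 27.1 CPM against 1768 CPM in muscle stem cells, and all 9 counts of Pax7, the defining gene of stem cells, lay in 1 barcode.

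The day 2 library gave little to set beside these values. It had 10 type IIb and 0 type IIx barcodes among 3494, and in those 10 the 16 fibre genes took a median of 0.0347% of counts (0 to 23.0%) with Malat1 at 4326 CPM. The day 7 filtered table held 4889 barcodes and 32356088 counts. Both filtered tables shared 4 barcode names, and 0 of them were members.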

How the data were processed

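Single-cell libraries of 2 injured muscles were used, 1 per time point. The authors deposited tables of UMI counts, in whole numbers, for called barcodes and for every barcode. The file header names Cell Ranger 3.0.1 and the labels name 3.1.0, with mm10 and Seurat 3.1.5. SoupX values, which the authors deposited as estimated counts that need not be whole, served as an alternative without rounding. The deposited annotation gave cell types. The study's methods name DoubletFinder for the removal of doublets, and whether it was applied before this annotation was not tested. No doublet caller was run here. Day 7 counts were summed over barcodes and given as CPM of all counts. Intervals (95%) were exact: Poisson for sums, Clopper-Pearson for shares and, for ratios, binomial given the total. UMI counts under 3 were taken as 3 for ranking and for bounds on fold. Free RNA came from barcodes of 1 to 100 counts. Barcodes were thinned without replacement to 1000 counts, and 0 members were left out by this. Named genes were those of 13 gene lists and 11 cell type lists, and the 10 highest and 10 lowest ratios among genes with at least 50 counts in the higher group and detection in 20% of its barcodes, leaving out mitochondrial, ribosomal protein and haemoglobin genes. Members and lists were chosen with earlier results of these data known. GENCODE vM21 coordinates matched 27645 gene identifiers, and upstream windows came from RefSeq. Analysis used Python 3.11.15 with NumPy 2.4.6, SciPy 1.17.1, pandas 2.3.3 and matplotlib 3.10.9, and was tested on simulated data. Some listed genes are not reported here by name.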

Additional observations from a re-analysis of the deposited data

Results flagged for a closer look

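A fibre signal was found in barcodes that the comparisons above did not use. Of the 1473 day 7 barcodes that were called as cells and carry no annotation, 197 had over 20% of their counts in the 16 fibre genes, while 0 of the 1368 immune barcodes did, which allows a share of up to 0.219% (3 counts of the total). These 197 barcodes were shallow, with a median of 767 counts (502 to 1619), and 194 of them held under 500 genes, the smallest number of genes found among the members. Summed over the 197, Myh4 stood at 1697 CPM, Myh1 at 833 CPM, Mb at 2631 CPM and Malat1 at 366 CPM. Why they carry no annotation was not tested.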

How the results depend on the processing

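Of 56 values recomputed under other settings, 47 lay within the counting interval of the reported one or, for numbers of genes, within 1.5 times of it, and the Myh4 and Myh1 log2 ratios kept their sign in each. With only the barcodes within the study's limits, the Myh1 log2 ratio was -2.87 and the members were 3.004% of annotated barcodes. Under the same limits developmental myosin was found in 1.32% of type IIb and 5% of type IIx barcodes, inside wide intervals. Against free RNA 695 genes passed 2-fold (864 as reported) over fewer barcodes, and no change in the share is read. As a mean over barcodes the Myh1 ratio was -2.02. With at least 20 counts in place of 50 and, at the same time, no limit on detection, 265 genes (103 as reported) passed 2-fold between the labels and 1425 (864 as reported) between fibre barcodes and free RNA, with more genes entering the comparison. With 1 count in place of 2 and no thinning, developmental myosin was found in 7.41% of type IIb barcodes. After thinning, at least 2 counts were found in 0% of type IIb and 0% of type IIx barcodes. Against muscle stem cells alone, a setting added after seeing the data, 2655 genes passed 2-fold (4431 with all myogenic barcodes), and the cause was not tested. Stem cells alone held 753588 counts, against 3237673 in all myogenic barcodes. The number of genes compared with them is not given here, so no change in the share is read. Median-of-ratios scaling gave 1963 higher and 1858 lower genes against myogenic barcodes, in place of 559 and 3872. No paired analysis was possible because each time point had 1 library and both labels came from the same one. Depth was one limit: with a median of 2311 counts per barcode, a low gene was missed in most barcodes, and type IIx values rest on 110576 counts. What 1 mouse shows cannot be told apart from what the time point shows.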
